A study of Mus musculus with 6 samples.

Results

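The genes described here are 33 listed genes of fatty acid oxidation, ketone body metabolism and targets of the nuclear receptor PPARa, taken from 17047 genes measured in mouse liver. They were chosen by name, and every array probe whose annotated gene is on the list was read, which gave 40 probes for 33 genes. Of the 33 genes, 31 were measured, meaning that in 1 group or both a probe stood well above background in each of the 3 mice. Acot2 and Ppargc1b did not meet that rule. Whole liver was taken from C57BL6/J mice, an inbred strain, 2 h after 3 of them had received 250 mg/kg by mouth of a compound the labels name only as CBZ and 3 others had received dimethyl sulfoxide (DMSO), a common solvent, by the same route. Age, sex, feeding state and the amount of DMSO were not given in the sources used here. RNA of each liver was labelled with Cy3 and hybridised to a 1-colour Agilent array, 1 array per mouse, so the replicates are mice.

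Fatty acids enter mitochondria through the carnitine shuttle, are shortened by beta-oxidation, and pass electrons to the respiratory chain through the electron transfer flavoprotein. In liver much of the resulting acetyl-CoA becomes ketone bodies during fasting, while very long chains are first shortened in peroxisomes. PPARa binds fatty acids, pairs with a retinoid X receptor on DNA, and raises the transcription of many of these genes in fasting and after fibrate drugs.

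Each value below is the log2 of a probe's processed signal minus the 75th percentile of that array's signal, so 0 means a signal equal to that percentile. A log2 fold change is the mean of the 3 CBZ mice minus the mean of the 3 DMSO mice, ± its standard error (SE) from limma, and a gene with several probes is read at its brightest. A gene counts as changed at a Benjamini-Hochberg adjusted p under 0.05 over the 22352 probes tested. The level of 1 probe is not compared with that of another, because probes bind with different strength. The 75th percentile of an array was between 158 and 191 intensity units, between 42.6% and 45.8% of spots were well above background, no spot was saturated, and 6 arrays limit the precision of every value. All arrays lay on 1 slide, with the 3 DMSO mice and CBZ replicate 1 in row 1 and CBZ replicates 2 and 3 in row 2. The 7 hepatocyte markers were all measured, and none of the marker lists for 10 cell types had a gene past the threshold in limma.

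None of the 31 measured genes passed the threshold, with 0 higher and 0 lower in CBZ. Of all 17047 genes, 8 (0.0469%) were higher and 1 (0.00587%) was lower at that threshold. At an unadjusted p under 0.05 in limma, 2 of the 31 genes were higher and 0 were lower, where all genes gave 5.00% higher and 3.97% lower. The 2 were Pdk4, a kinase that switches off pyruvate dehydrogenase and so spares glucose when fat is burned, and Ucp2, a carrier of the mitochondrial inner membrane. They were also the only 2 genes of the 31 in which every CBZ mouse lay above every DMSO mouse, a pattern found in 6.27% of all genes. In 0 of the 31 genes did every CBZ mouse lie below every DMSO mouse, against 6.65% of all genes. The 2 genes above are 6.45% of the 31, near the background share.

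The sizes were small for most of the list. The median log2 fold change of the 31 genes was -0.015, beside -0.0042 over all genes measured, with 13 genes above 0 and 18 below, where 49.1% of all genes lay above 0. With quantile normalization 16 genes lay above 0 and 15 below, and with arrays scaled by their median 6 lay above 0 and 25 below, a scaling that put the median of all probes at -0.11. The range ran from -0.17 for Acaa1a to 1.44 for Pdk4. In 29 of the 31 genes the 95% interval of the change lay within 2-fold in either direction, the exceptions being Pdk4 and Acot3, and in 27 it lay within 1.5-fold, with Ucp2 and Vnn1 as the further exceptions. Over all genes 94.5% of intervals lay within 2-fold, beside 93.5% of the list. That share depends on the size of the changes as well as on precision. The median SE was 0.145 for the list and 0.154 for all genes. In whole liver, fewer cells of a type and less RNA per cell cannot be told apart.

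**Figure D1:**
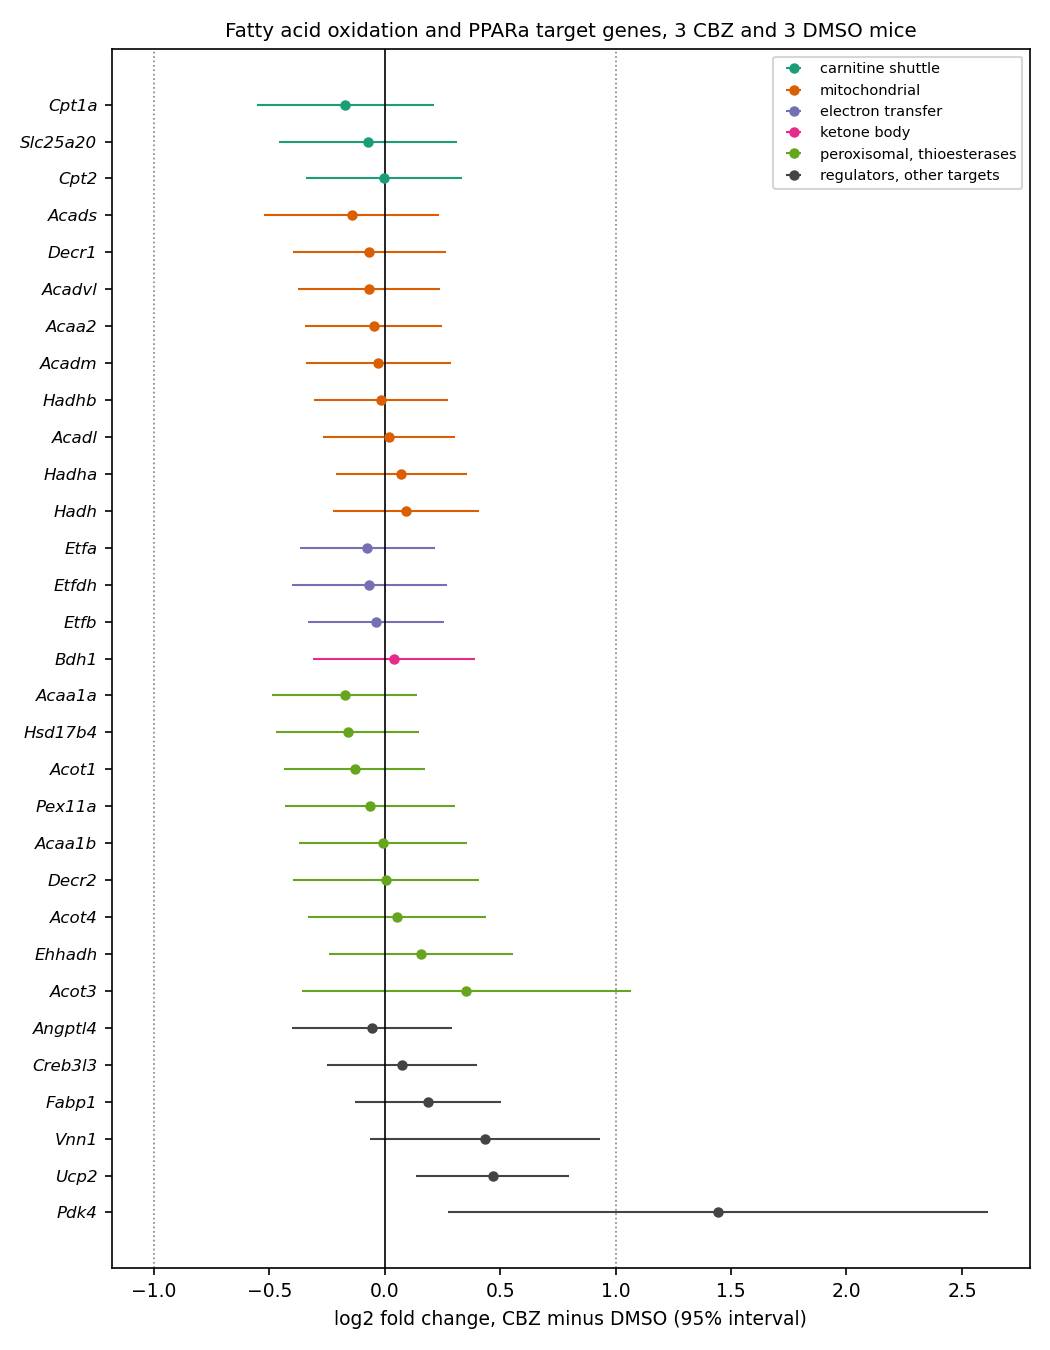
Log2 fold change, CBZ minus DMSO, of each of the 31 measured genes on the horizontal axis, grouped by role (colours), with bars for the 95% interval from limma over 3 mice per group and dotted lines at a 2-fold difference. Only the bars of Pdk4 and Ucp2 lie wholly above 0, only those of Pdk4 and Acot3 pass a dotted line, and none of the 31 adjusted p-values was under 0.05.

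The promoters of the 2 separated genes and of a pair of well-known PPARa targets were searched for the unit AGGTCA. Binding of the receptor was not measured. PPARa with its partner binds a direct repeat of AGGTCA with 1 base between the copies. The 150 bases before each start site are given 5′ to 3′ on the gene's strand from RefSeq (GRCm38.p6), with the 6-base unit AGGTCA, or TGACCT where it lies on the opposite strand, in capitals. Pdk4 lies at chr6:5496279-5496428 on the minus strand, Ucp2 at chr7:100493208-100493357 on the plus strand, Fabp1 at chr6:71199729-71199878 on the plus strand and Cpt1a at chr19:3323151-3323300 on the plus strand.
Pdk4: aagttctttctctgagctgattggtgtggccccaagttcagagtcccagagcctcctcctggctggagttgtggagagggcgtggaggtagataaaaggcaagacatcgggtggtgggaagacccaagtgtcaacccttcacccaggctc
Ucp2: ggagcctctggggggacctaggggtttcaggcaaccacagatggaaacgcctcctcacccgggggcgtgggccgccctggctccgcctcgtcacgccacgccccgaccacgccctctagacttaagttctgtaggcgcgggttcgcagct
Fabp1: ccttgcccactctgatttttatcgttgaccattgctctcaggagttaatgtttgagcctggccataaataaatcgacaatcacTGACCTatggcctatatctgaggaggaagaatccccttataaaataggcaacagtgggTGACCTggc
Cpt1a: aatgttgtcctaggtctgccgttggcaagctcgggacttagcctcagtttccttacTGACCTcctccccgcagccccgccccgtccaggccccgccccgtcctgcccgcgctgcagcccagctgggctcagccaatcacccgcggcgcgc
The stretches of Pdk4 and Ucp2 held 0 such units, that of Fabp1 held 2, which start 67 and 9 bases before the start site, and that of Cpt1a held 1, 94 bases before it. Over the 250 bases before the start site, which were at hand for 27 of the 33 genes, the unit AGGTCA on either strand was present in 6 genes: Fabp1, Cpt1a, Acadm, Acadvl, Acot4 and Creb3l3. Both targets printed above are among these 6. Their contrast with Pdk4 and Ucp2 thus comes from the choice of genes and says nothing of separated against other genes. Most of the 27 genes lacked the AGGTCA unit. The unit was present in 14.0% of all 32851 RefSeq stretches of that length. The full repeat, searched as AGGTCANAGGTCA on both strands, was in 0 of the 27 genes and in 0.0335% of all stretches. So rare an exact match was all but sure to be absent from 27 genes, so its absence says nothing of them. The search also misses repeats that differ in a base. In Fabp1 the unit 67 bases before the start site is followed, after 1 base, by tggcct, which differs from TGACCT in 1 base. A TATA box, searched as TATAAA on both strands, was in 2 genes, Fabp1 and Acot4, beside 12.4% of all stretches. These matches are letters in short stretches and describe no binding. Hadha and Hadhb, which encode the subunits of the mitochondrial trifunctional protein, share 1 head-to-head promoter on chromosome 5, with start sites 273 bases apart.

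Pdk4 had the largest difference of the list. Its probe, at chr6:5433441-5433500 on mm9, read 0.99, 0.16 and 1.10 in DMSO replicates 1 to 3 and 1.45, 1.60 and 3.54 in CBZ replicates 1 to 3. The groups did not overlap, but CBZ replicate 3 stood far above the other CBZ mice and DMSO replicate 2 far below the other DMSO mice. The log2 fold change was 1.44 ± 0.51, a 2.72-fold difference with a 95% interval from 1.21-fold to 6.12-fold, and limma gave an unadjusted p of 0.0210 and an adjusted p of 0.412. Without CBZ replicate 3 the log2 fold change was 0.77, with an adjusted p of 0.676 in limma, so the value rests largely on 1 mouse. With the slide row in the fit, which compares CBZ replicate 1 with the 3 DMSO mice beside it, the log2 fold change was 0.70, with an adjusted p of 0.992 in limma.

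Ucp2 showed a smaller and more even difference. Its probe, at chr7:107647809-107647868 on mm9, read 0.90, 0.80 and 0.50 in DMSO replicates 1 to 3 and 1.24, 1.24 and 1.11 in CBZ replicates 1 to 3. All CBZ mice lay above all DMSO mice, and the CBZ mice lay close together. The log2 fold change was 0.47 ± 0.14, a 1.38-fold difference with a 95% interval from 1.10-fold to 1.74-fold, and limma gave an unadjusted p of 0.0110 and an adjusted p of 0.340, the smallest of the list. Ucp2 is also expressed in macrophages, as background. The macrophage and Kupffer cell markers, of which 8 of 8 were measured, had mean deviations of 0.70, -0.32 and -0.47 in DMSO replicates 1 to 3 and of 0.20, -0.052 and -0.054 in CBZ replicates 1 to 3. Their summed linear level ran from 125.8 to 281.5 in DMSO and from 163.3 to 198.4 in CBZ, in units of the array's 75th percentile, and their part in the Ucp2 result was not tested.

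The other regulators and PPARa targets overlapped between groups. Vnn1, a pantetheinase that helps recycle the vitamin part of coenzyme A, read 1.38, 1.10 and 0.50 in DMSO and 1.48, 1.55 and 1.26 in CBZ. DMSO replicate 3 was the low mouse and DMSO replicate 1 lay among the CBZ mice. The log2 fold change of Vnn1 was 0.44 ± 0.22 (adjusted p = 0.619 in limma), and it was 0.19 without DMSO replicate 3. Fabp1, the fatty acid binding protein of the hepatocyte cytosol, read 9.02, 9.01 and 9.09 in DMSO and 9.03, 9.42 and 9.23 in CBZ. CBZ replicate 1 lay within the DMSO range, and the log2 fold change was 0.19 ± 0.14 (adjusted p = 0.827 in limma).

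Angptl4, a secreted inhibitor of lipoprotein lipase and a fasting-induced PPARa target, read 8.21, 7.98 and 8.29 in DMSO and 7.97, 8.32 and 8.02 in CBZ. CBZ replicate 2 was the highest of the 6 mice and CBZ replicate 1 the lowest, so the groups overlapped fully, with a log2 fold change of -0.056 ± 0.15. Creb3l3, a membrane-bound transcription factor that works with PPARa on fasting genes, read 7.50, 7.68 and 7.45 in DMSO and 7.52, 7.82 and 7.53 in CBZ. Its log2 fold change was 0.076 ± 0.14, with overlapping groups, and it turned to -0.023 when arrays were scaled by their median. Ppargc1b, a coactivator of mitochondrial genes, was well above background in CBZ replicate 2 alone, and no fold change is given for it.

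The carnitine shuttle was close to level. Cpt1a, the outer-membrane acyltransferase that sets the rate of fatty acid entry into mitochondria, read 6.02, 6.31 and 5.75 in DMSO and 5.90, 5.98 and 5.69 in CBZ. DMSO replicate 2 was highest and CBZ replicate 3 lowest, and the CBZ mice lay within or just under the DMSO range. The log2 fold change was -0.17 ± 0.17 (adjusted p = 0.906 in limma), and a second Cpt1a probe gave -0.21 ± 0.22. The Cpt1a probe was printed as 10 spots on each array, and the SD over those spots was 0.0171 to 0.0566 within an array, against an SD between mice of 0.276 in DMSO and 0.149 in CBZ. The spread of Cpt1a was thus larger between mice than between spots of 1 array. Cpt2, the inner-membrane partner, read 5.001, 5.15 and 4.91 in DMSO and 4.82, 5.23 and 5.004 in CBZ. CBZ replicates 1 and 2 were the lowest and the highest of the 6 mice, and the probes of Cpt2 gave -0.0028 and 0.039, of opposite sign and well inside their SEs of 0.15 and 0.26. Slc25a20, the carrier that exchanges acylcarnitine for carnitine, had a log2 fold change of -0.071 ± 0.17.

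Among the genes of mitochondrial beta-oxidation, 9 of 10 were measured, and 3 of the 9 lay above 0 and 6 below. Their log2 fold changes ran from -0.14 for Acads, the dehydrogenase for short chains, to 0.091 for Hadh, the hydroxyacyl-CoA dehydrogenase, with a median of -0.028. The smallest adjusted p of the 9 in limma was 0.926. Acadm, the dehydrogenase for medium chains, read 6.54, 6.45 and 6.29 in DMSO and 6.23, 6.50 and 6.45 in CBZ. Its mice were interleaved, with a log2 fold change of -0.028 ± 0.14. Hadha, the large subunit of the trifunctional protein, read 3.66, 3.82 and 3.61 in DMSO and 3.77, 3.73 and 3.82 in CBZ. DMSO replicate 2 was the highest mouse, and the log2 fold change was 0.072 ± 0.12, beside -0.015 ± 0.13 for its promoter partner Hadhb. The sign of Hadha turned to -0.028 with arrays scaled by their median.

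Decr1, a reductase that handles unsaturated fatty acids, read 7.65, 7.77 and 7.41 in DMSO and 7.46, 7.68 and 7.48 in CBZ. DMSO mice held both the highest and the lowest value, and the probes of Decr1 gave -0.066 ± 0.15 and 0.017 ± 0.21. The other dehydrogenases Acadl and Acadvl, for long and very long chains, had log2 fold changes of 0.019 and -0.066, and the thiolase Acaa2 had -0.048. Acot2, a mitochondrial thioesterase that frees fatty acids from coenzyme A, was well above background on 0 of 6 arrays, so nothing can be said of its change.

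The 3 electron transfer genes lay slightly below 0, here and under the 3 other scalings tried. Etfa and Etfb, the subunits of the electron transfer flavoprotein, had log2 fold changes of -0.075 ± 0.13 and -0.040 ± 0.13, and Etfdh, the oxidoreductase that receives their electrons, had -0.066 ± 0.15. None of the 3 had an unadjusted p under 0.05, and the smallest adjusted p in limma was 0.959. In Etfb the SD over the DMSO mice was 0.00776, the smallest of the list, against 0.147 over the CBZ mice.

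The peroxisomal genes and acyl-CoA thioesterases had a median log2 fold change of -0.00675, with 4 of 9 above 0. Ehhadh, the bifunctional enzyme of peroxisomal oxidation and a strong fibrate target in rodents, read 5.02, 4.79 and 4.69 in DMSO and 4.70, 4.99 and 5.27 in CBZ. The groups were interleaved, with CBZ replicate 3 highest, and the log2 fold change was 0.16 ± 0.17. With the slide row in the fit it turned to -0.13. Acaa1a, a peroxisomal thiolase, read 8.13, 8.32 and 7.995 in DMSO and 7.91, 8.10 and 7.92 in CBZ. CBZ replicate 2 lay within the DMSO range, and the log2 fold change was -0.17 ± 0.14 (adjusted p = 0.853 in limma), the lowest of the list. Its close relative Acaa1b gave -0.00675 ± 0.16.

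The other peroxisomal genes were Hsd17b4, the second bifunctional enzyme, at -0.16 ± 0.14, Decr2, the peroxisomal counterpart of Decr1, at 0.00662 ± 0.18, and Pex11a, which takes part in peroxisome division, at -0.064 ± 0.16. Of these 3, none had an unadjusted p under 0.05 in limma.

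Acot1, the cytosolic thioesterase and a sensitive PPARa target, read 4.96, 5.01 and 4.71 in DMSO and 4.77, 4.81 and 4.70 in CBZ. The CBZ mice lay at the lower end of the DMSO range, with a log2 fold change of -0.13 ± 0.13. Acot3, a peroxisomal thioesterase, read 0.65, 0.21 and -0.51 in DMSO and 0.70, -0.041 and 0.75 in CBZ. The spread within each group of Acot3 was wider than the difference of 0.35 ± 0.31, and leaving out 1 mouse moved that difference between 0.039, without DMSO replicate 3, and 0.62, without DMSO replicate 1. Acot4, a further peroxisomal thioesterase, read 1.44, 1.40 and 0.95 in DMSO and 1.45, 1.13 and 1.37 in CBZ, with overlapping groups and a log2 fold change of 0.053 ± 0.17 that turned to -0.047 with arrays scaled by their median. The 4 thioesterase genes are near relatives that lie side by side on chromosome 12. In the best ungapped alignment the probes of any pair of them shared between 37.5% and 48.9% of bases, and those of Acaa1a and Acaa1b shared 36.7%. Probes were compared with each other and not with the relatives' transcripts, so whether a probe also binds a relative was not tested.

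Of the ketone body genes only Bdh1, the dehydrogenase that makes beta-hydroxybutyrate from acetoacetate, was on the list. It read 6.03, 6.10 and 5.64 in DMSO and 5.88, 6.02 and 5.99 in CBZ. DMSO replicate 3 was the low mouse and the others overlapped, with a log2 fold change of 0.041 ± 0.15 that turned to -0.059 with arrays scaled by their median. The other 2 Bdh1 probes gave 0.062 and 0.055.

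Across the list the mice differed from each other more than the groups did. DMSO replicate 3 was the lowest of the DMSO mice in 25 of the 31 genes, where over all genes it was so in 45.1%, and the lowest of all 6 mice in 13 genes, beside 21.5% of all genes. CBZ replicate 1 was the lowest of the 6 in 12 genes, beside 16.6% of all genes. CBZ replicate 2 was the highest in 11 genes, beside 22.4% of all genes, and DMSO replicate 2 in 10, beside 15.6%. Each group thus held a mouse that was often high and a mouse that was often low. The mean deviation of the list in DMSO replicate 3 was -0.17. Marker lists there had -0.052 for hepatocyte, -0.32 for sinusoidal endothelium, -0.47 for Kupffer cell, -0.76 for adipocyte and -1.27 for neutrophil. The remaining measured lists had 0.24 for cholangiocyte, -0.028 for stellate cell and fibroblast and -0.032 for lymphocyte. The part of these cells in the low values of the list was not tested. Without DMSO replicate 3 the median log2 fold change of the list was -0.080, with 0 genes past the threshold in limma. The median SD over mice was 0.127 in DMSO and 0.147 in CBZ for the list, and 0.171 and 0.161 for all genes.

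**Figure D2:**
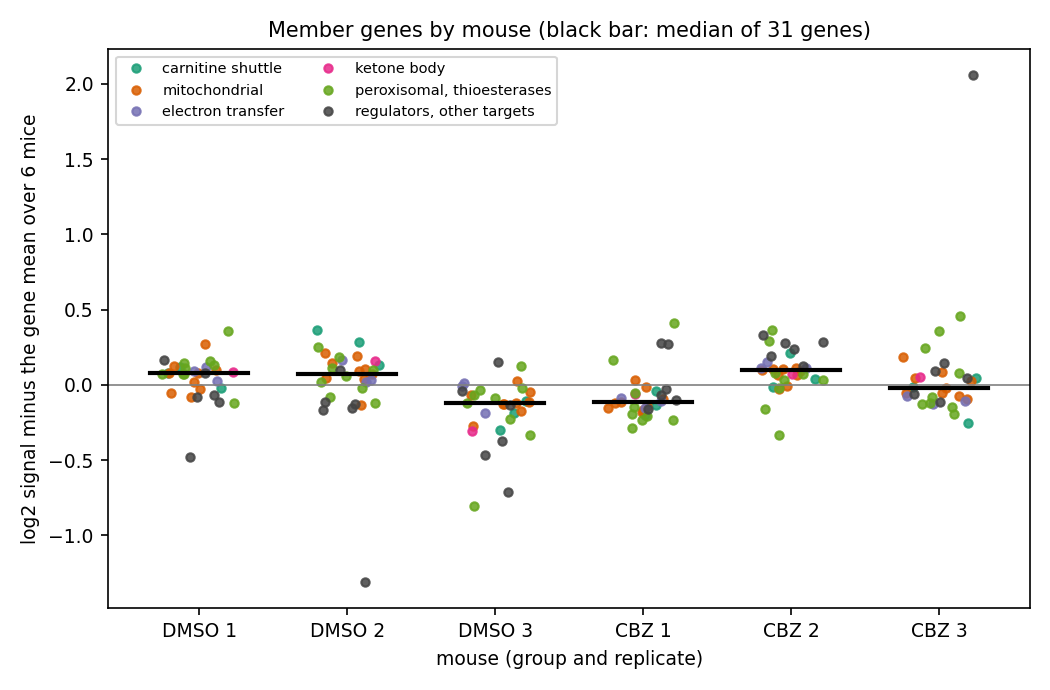
Log2 signal of each of the 31 genes minus that gene's mean over the 6 mice (vertical axis), by mouse (horizontal axis), coloured by role, with a black bar at the median of the genes. The bars of DMSO replicate 3 and CBZ replicate 1 lie at -0.12 and -0.11, that of CBZ replicate 2 at 0.10, and the point far above the rest in CBZ replicate 3 is Pdk4.

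The receptor itself and its partners were read from a list of 11 genes that are not among the 33, and 0 of the 11 passed the threshold in limma. At an unadjusted p under 0.05, 0 were higher and 3 were lower, Ppara, Sirt1 and Med1. Over all genes 5.00% were higher and 3.97% lower at that p, and 6.65% had every CBZ mouse below every DMSO mouse. Ppara read 6.19, 6.45 and 6.19 in DMSO and 5.70, 5.997 and 5.67 in CBZ. Every CBZ mouse lay below every DMSO mouse, with a log2 fold change of -0.49 ± 0.15 (adjusted p = 0.330 in limma). Further Ppara probes gave -0.34 and -0.38, so the 3 probes of the gene had the same sign. Sirt1, a deacetylase that acts on the receptor's coactivators, read 1.69, 1.85 and 1.84 in DMSO and 1.23, 1.49 and 1.18 in CBZ, without overlap and with a log2 fold change of -0.49 ± 0.14 (adjusted p = 0.295 in limma). Med1, a Mediator subunit that nuclear receptors recruit, read 4.99, 5.14 and 4.76 in DMSO and 4.42, 4.66 and 4.71 in CBZ, with a log2 fold change of -0.37 ± 0.15 (adjusted p = 0.495 in limma). Further Med1 probes gave -0.13, -0.11 and -0.21, and the mean of the Med1 probes gave -0.20 (adjusted p = 0.726 in limma). Ncoa1, a further coactivator, was the fourth gene of the list without overlap, at -0.11, and is named after its values were seen. Its further probes gave 0.080 and 0.036, of the opposite sign and with overlap. Ppargc1a, the coactivator induced in fasting, read 2.18, 1.89 and 2.13 in DMSO and 2.07, 2.17 and 2.37 in CBZ, with overlap and a log2 fold change of 0.14 ± 0.14. A second Ppargc1a probe gave 0.42 ± 0.15 (unadjusted p = 0.0182 and adjusted p = 0.391 in limma), with all CBZ mice above all DMSO mice, and the mean of both probes gave 0.28. Rxra, the DNA-binding partner of PPARa, had -0.030 and is likewise named for its role.

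Of 8 measured genes of ketone body synthesis and transport, 0 passed the threshold in limma. At an unadjusted p under 0.05, 1 gene was higher and 0 were lower, where all genes gave 5.00% higher and 3.97% lower. Slc16a6, a carrier of the monocarboxylate transporter family linked to ketone body export, read 1.19, 0.47 and 1.28 in DMSO and 2.04, 1.505 and 2.54 in CBZ. All CBZ mice lay above all DMSO mice, with a log2 fold change of 1.05 ± 0.29 (adjusted p = 0.292 in limma). The counts are at the brightest probe, where Slc16a7 gave -0.19. Dimmer Slc16a7 probes gave 0.42 (unadjusted p = 0.0497 and adjusted p = 0.531 in limma) and -0.23.

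**Figure D3:**
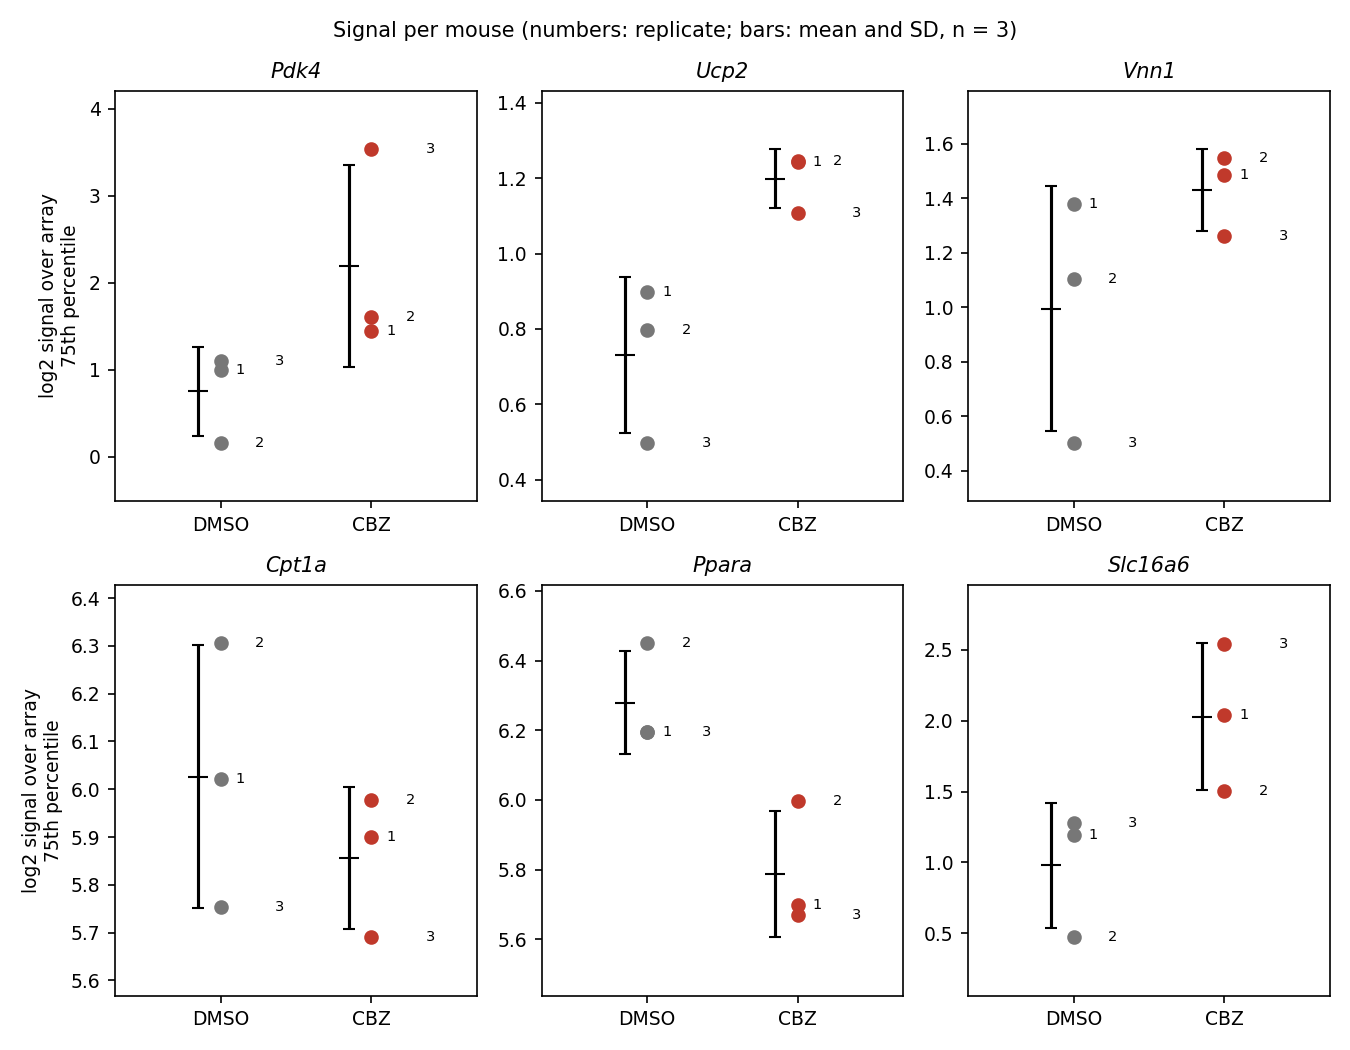
Log2 signal over the array's 75th percentile (vertical axes, each on its own range) of 6 genes in the DMSO and CBZ mice, with the replicate number beside each point and the mean and SD (n = 3) drawn at the left of the points. Pdk4, Ucp2 and Slc16a6 lie higher and Ppara lower in all CBZ mice, while Vnn1 and Cpt1a overlap. No adjusted p in limma was under 0.05.

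Other enzymes of the pathway gave few differences. Of 21 measured genes among 23 other mitochondrial fatty acid genes, none had an unadjusted p under 0.05 in limma, 0 in either direction. The same was true of 35 measured genes among 37 other peroxisomal genes, each read at its brightest probe. Over all genes 5.00% were higher and 3.97% lower at that p. A dimmer Pex6 probe gave -0.33 ± 0.12 (unadjusted p = 0.0243 and adjusted p = 0.428 in limma), beside -0.12 ± 0.15 at the brightest. Acacb, which makes the malonyl-CoA that blocks the carnitine shuttle, read 5.68, 4.48 and 5.61 in DMSO and 6.03, 6.004 and 5.61 in CBZ. DMSO replicate 2 was the low mouse, and the log2 fold change was 0.62 ± 0.30 (adjusted p = 0.602 in limma). Without that mouse the Acacb value was 0.23.

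Further PPARa targets and relatives of the listed genes were more mixed. Of 28 such genes 23 were measured, and 0 passed the threshold in limma. At an unadjusted p under 0.05, where all genes gave 5.00% higher and 3.97% lower, there were 5 higher and 1 lower. The 5 were Pdp2, Cidec, Cyp4a14, Hilpda and Ucp3, the last named only to complete the count, and the 1 was Cyp4a12a. These counts are at the brightest probe, where Me1 gave 0.24. Dimmer Me1 probes gave 0.549 and 0.555 (unadjusted p = 0.0294 and 0.0270, adjusted p = 0.452 and 0.440 in limma). Pdp2, the phosphatase that switches pyruvate dehydrogenase back on and so opposes Pdk4, read 3.84, 4.02 and 3.84 in DMSO and 4.37, 4.75 and 4.63 in CBZ. All CBZ mice lay above all DMSO mice, with a log2 fold change of 0.68 ± 0.14 (adjusted p = 0.180 in limma). Pdp2 passed the threshold under 2 of 18 other settings. These were normexp background correction, with an adjusted p of 0.0306 in limma, and an intensity trend with robust eBayes, with 0.00975. The log2 fold change of Pdp2 was lowest, at 0.46, with the slide row in the fit.

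Of 5 measured genes of lipid droplets, the CBZ mice lay without overlap above the DMSO mice in Cidec, Hilpda and Plin5. That pattern was found in 6.27% of all genes, and this droplet group was not among the lists set beforehand. Plin5, named like Plin2 and G0s2 to complete the group, had a log2 fold change of 0.48 ± 0.21. Plin2 and G0s2 overlapped between groups, at 0.15 ± 0.16 and -0.42 ± 0.42. Cidec read -0.66, -1.12 and -0.83 in DMSO and -0.56, 0.086 and -0.016 in CBZ, with a log2 fold change of 0.71 ± 0.20 (adjusted p = 0.304 in limma). CBZ replicate 1 was only just above the DMSO mice, and the difference was 0.31 with the slide row in the fit and 0.39 after normexp background correction. Hilpda read 0.71, -0.084 and 0.54 in DMSO and 0.81, 0.91 and 1.46 in CBZ, with a log2 fold change of 0.67 ± 0.24 (adjusted p = 0.424 in limma), which was 0.42 with the slide row in the fit and 0.44 without DMSO replicate 2. Cidec is also a fat cell gene, as background, and of the 6 fat cell markers Adipoq, Lep and Retn were well above background on no array and Plin1 on 4. The 2 measured markers were higher in CBZ by 0.82 ± 0.41 for Cfd and 0.44 ± 0.22 for Fabp4, with unadjusted p-values of 0.0790 and 0.0778 in limma. The summed level of these 2 ran from 5.33 to 8.15 in DMSO and from 6.66 to 10.9 in CBZ, in units of the array's 75th percentile, and its part in the Cidec result was not tested.

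The fatty acid hydroxylases of the Cyp4a family, which include strong PPARa targets, went different ways. Cyp4a14 read 5.52, 4.82 and 6.41 in DMSO and 6.77, 6.32 and 6.81 in CBZ. DMSO replicate 3 lay above CBZ replicate 2, so the groups overlapped, and the log2 fold change was 1.05 ± 0.35 (adjusted p = 0.377 in limma). Leaving out 1 mouse moved it between 0.67, without DMSO replicate 2, and 1.46, without DMSO replicate 3. Cyp4a10 read 6.81, 6.58 and 7.24 in DMSO and 7.35, 7.19 and 7.06 in CBZ, with overlap and a log2 fold change of 0.32 ± 0.18 (adjusted p = 0.697 in limma), which was 0.18 without DMSO replicate 2 and 0.51 without DMSO replicate 3. Cyp4a12a, whose transcript is under male hormonal control, read 5.88, 5.83 and 5.64 in DMSO and 4.65, 5.42 and 5.09 in CBZ. All CBZ mice lay below all DMSO mice, with CBZ replicate 1 lowest, and the log2 fold change was -0.73 ± 0.20 (adjusted p = 0.281 in limma), which was -1.13 with the slide row in the fit. Genes of this family are near copies of each other, so their probes may share signal. Fgf21, the hormone that PPARa induces in fasting liver, was dim in both groups and gave no fold change.

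**Figure D4:**
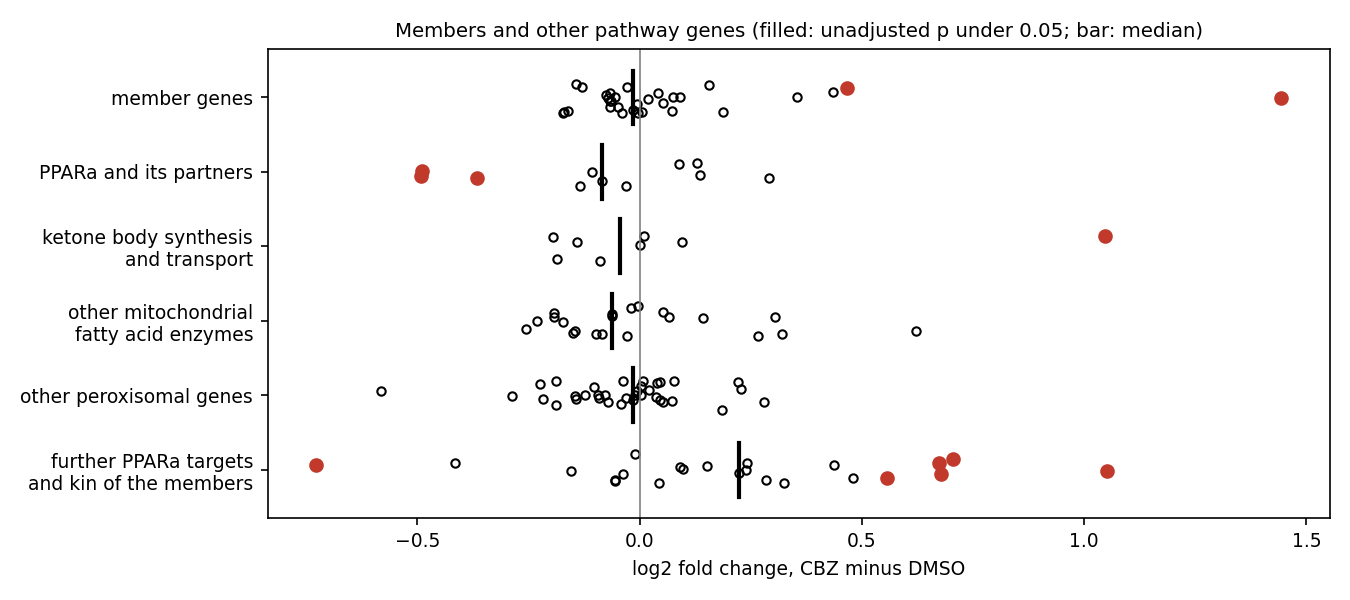
Log2 fold change, CBZ minus DMSO (horizontal axis), of each measured gene of the list and of 5 further lists of the pathway (rows), with filled points for an unadjusted p under 0.05 in limma, spread vertically only for legibility, and a bar at each list's median. The median lies at -0.015 for the 31 listed genes and at 0.22 for the 23 further targets, and none of the points had an adjusted p under 0.05.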

How the data were processed

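Groups and replicate numbers came from the labels. Per the file headers, the scans were read by the authors in Agilent Feature Extraction 10.7.3.1. The deposited scanner files hold, per spot, a linear intensity from which the software had subtracted background, per the file headers. The authors' deposited table holds the same intensity as a ratio to the array's median, shown by recomputing it from the scanner files, so every column has a median of 1.

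Control and outlier spots (114 to 126 outliers per array) were dropped, log2 intensity was scaled by each array's 75th percentile, and repeated spots were averaged. Of 55681 probes, 22352 stood well above background in all 3 mice of a group and were tested. A RefSeq table (GRCm38.p6) gave names to 27422 probes through accessions, 3488 through symbols and 507 through synonyms, while 24264 kept the file's name. Probe coordinates are mm9, as in the array design. Promoter sequences are RefSeq's.

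Testing used lmFit and eBayes of limma 3.58.1 in R 4.3.3, two-sided and without covariates, with p-values adjusted by Benjamini-Hochberg over the tested probes and called at 0.05. The procedure was run on simulated arrays with planted changes and independent noise. How often it finds changes of the sizes seen here is not given, so a gene not past the threshold may still differ. The p-values rest on the spread between these mice, with the variance of each probe drawn by limma toward a value common to all probes. The members and all lists were chosen with earlier results of these data known. Values per mouse are given for members with an unadjusted p under 0.05 or separated groups, the 6 largest differences, those whose probes differ in sign, 16 set names, and in the further lists 8 set names and up to 4 others per list with an unadjusted p under 0.05, of which some are not reported here. Marker lists covered hepatocyte, Kupffer cell and macrophage, sinusoidal endothelium, stellate cell and fibroblast, cholangiocyte, lymphocyte, neutrophil, adipocyte, muscle and exocrine pancreas. Alternatives were normexp background correction (offset 50), other scalings and filters, a variance trend with robust eBayes, the authors' table, slide row or array brightness as covariate, a block for the replicate number, each mouse left out, averaged probes per gene, and an adjusted p under 0.10.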

Additional observations from a re-analysis of the deposited data

How the results depend on the processing

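The counts of 0 listed genes higher and 0 lower held under every alternative but 2: with arrays scaled by their median, and with the authors' table, which holds the same scaling, 1 gene was higher, Pdk4 (log2 fold change 1.34, adjusted p = 0.00103 in limma). In those fits limma gave all probes 1 common variance, so that p does not measure the spread of Pdk4 between mice, and the median of all probes was -0.11. The median log2 fold change of the list was -0.13 with the slide row as covariate. That fit compares CBZ replicate 1 alone with the 3 DMSO mice. CBZ replicate 1 was the lowest of the 6 mice in 12 of the 31 listed genes. Over all probes 12 were higher and 2 lower. These counts were 37 and 21 at an adjusted p under 0.10, 76 and 54 with normexp, 60 and 71 with median scaling and with the authors' table, 31 and 12 with probes above background on all 6 arrays, 83 and 91 with a trend and robust eBayes, 6 and 0 with scaling over detected spots, 0 and 0 with no filter, and 5 and 1 with the 75th percentile as covariate. Higher probes numbered 5 with quantile normalization and 4 with the slide row. Leaving out 1 mouse gave 0 to 22 higher and 0 to 8 lower, with 0 of each without DMSO replicate 3 and 1 and 0 without CBZ replicate 3.

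The labels do not say that replicate numbers pair the mice, and the values gave no sign of it. Same-numbered mice deviated with correlations of -0.238, 0.0165 and 0.18, and unlike-numbered mice with -0.354 to 0.38. With 3 mice per group these correlations cannot settle whether mice were paired. With the replicate block 9 probes were higher and 1 was lower, and no listed gene passed the threshold.

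Several small values changed sign. With median scaling and with the authors' table Acot4 was -0.047, Hadha -0.028, Creb3l3 -0.023 and Bdh1 -0.059. With the slide row, and so with CBZ replicate 1 alone against the DMSO mice, Ehhadh was -0.13, Creb3l3 -0.028, Bdh1 -0.043 and Fabp1 -0.0065. Cpt2 was 0.013 with quantile normalization, 0.023 with detected spots, 0.012 with the 75th percentile as covariate and 0.018 with the mean of its probes. Leaving out 1 mouse gave -0.097 to 0.055 for Acadm, -0.10 to 0.15 for Acot4, -0.17 to 0.011 for Angptl4, -0.10 to 0.13 for Bdh1, -0.11 to 0.095 for Cpt2, -0.024 to 0.14 for Creb3l3 and -0.17 to 0.013 for Decr1. Apart from what the slide-row fit compares, the causes were not tested. Over the named genes 490 values kept their direction and their side of the threshold. Signal over background limits Acot2, Ppargc1b and Acot3. Pdk4, Ucp2, Vnn1 and Acot4 were also read at dim probes, though well above background on all 6 arrays. In intensity units these ran from 194 to 2216, 244 to 435, 245 to 514 and 335 to 503. The brighter Acot3 probe ran from 121 to 322.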

Other observations

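DMSO replicate 3 lay further below the other mice at the dim than at the bright probe of several genes. In the 5 listed genes with kept probes over 4-fold apart in signal, the bright probe minus the dim one, relative to the gene's mean over the 6 mice, was higher in DMSO replicate 3 by 0.32 for Bdh1, 0.59 for Cpt2, 0.21 for Cpt1a, 0.27 for Decr1 and 0.36 for Etfa. Over 844 genes with such probe pairs the median in that mouse was 0.01. The low values of DMSO replicate 3 were thus deeper at the dim probe of each of these 5 genes, and this pattern was noticed after the values were seen and was not tested.

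Repeated spots gave a measure of printing and scanning error for 3 of the listed genes, each printed 10 times per array. The SD within an array was 0.0274 to 0.0451 for Acaa2, against 0.118 between DMSO mice and 0.0915 between CBZ mice. For Pex11a it was 0.0204 to 0.0401, against 0.0585 and 0.281.

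Among the other cell types, of the marker genes measured, 0 of 5 for stellate cells and fibroblasts, 0 of 6 for sinusoidal endothelium, 0 of 4 for lymphocytes, 0 of 3 for neutrophils and 0 of 2 for adipocytes had an unadjusted p under 0.05 in limma, and 1 of 3 for cholangiocytes had one. The 3 muscle and 3 exocrine pancreas markers were below the rule for measured genes. Hepatocyte and Kupffer cell markers had 0 of 7 and 0 of 8.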
